A study of Mus musculus with 6 samples.

Results

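The genes examined here encode the IKK complex and the kinases that act around it. They were chosen by symbol: Chuk, Ikbkb, Ikbkg, Tbk1, Ikbke, Map3k7, Tab1, Tab2, Map3k14 and Map3k8. All 10 were found among the 24062 genes of the deposited table, and all 10 passed the low-count filter that left 12126 genes for testing. The lowest count of any of them in any library was 132 reads, for Map3k8.

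The IKK complex is the switch of NF-κB signalling. Receptors of TNF, interleukin-1 and microbial products build ubiquitin chains that recruit TAK1 with its TAB partners and the NEMO-bound kinases IKKα and IKKβ, and IKKβ then marks the inhibitor IκBα for destruction. NIK drives a separate, noncanonical branch through IKKα, the IKK-related kinases TBK1 and IKKε act mainly in interferon signalling, and TPL2 links the pathway to ERK. A20, the product of Tnfaip3, edits the ubiquitin chains on which this machinery assembles and is itself an NF-κB target.

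Expression was measured by RNA sequencing in a retroviral mouse model of acute myeloid leukemia. Lineage-negative hematopoietic cells, which lack surface markers of mature blood cells, were transduced with the fusion oncogene MLL-AF9 and grown in medium with IL-6, IL-3 and SCF. The cells came from A20+/+ Rosa Cre-ER mice (3 libraries labelled A20 WT) or from A20f/f Rosa Cre-ER mice (3 libraries labelled A20 KO), so every culture carried the tamoxifen-activated Cre, and every culture received 1 µM 4-hydroxytamoxifen for 48 h. Neither the age of the mice nor whether the libraries of a group came from separate cultures or animals is stated in these sources, so the p-values describe only how far these libraries vary, and that variation may be technical.

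The libraries held 16113320 to 25415274 counted reads. Levels below are CPM, read counts scaled to the library's TMM-adjusted total, and changes are KO-labelled minus WT-labelled from edgeR's quasi-likelihood test, called at an adjusted p under 0.05. Tnfaip3, the targeted gene, went against its label: its 3 levels were 7.39, 8.67 and 8.24 CPM under the WT label and 100.1, 74.1 and 79.1 CPM under the KO label. These counts cover all exons of the gene and do not measure the deletion, and groups are therefore named by their labels throughout. The groups also differed in Xist, the RNA of the inactive X chromosome (564 to 2109 CPM under the WT label against 0 to 4.77 CPM under the KO label), and in the Y-linked gene Ddx3y (0 to 0.804 against 78.5 to 89.2 CPM). The label and the sex of the cells therefore cannot be told apart here, which also holds for the X-linked genes Ikbkg and Tab3 below. In both groups replicate 1 differed most from the other two libraries. In the WT-labelled group the summed level of 6 monocyte and macrophage markers was 411 CPM in replicate 1 against 3312 and 2565 CPM in replicates 2 and 3, with 1676 to 3088 CPM in the KO-labelled libraries. Members of this list went different ways, and they are named after their values were seen. Cd14 had means of 25.03 ± 14.0 and 361 ± 137 CPM and Csf1r of 24.8 ± 19.0 and 207 ± 126 CPM (SD, n = 3), both called higher (adjusted p = 0.0024 and 0.043 by edgeR), while Cx3cr1 was called lower (0.0087) and Itgam, Emr1 and Lyz2, the most abundant, did not pass. The 8 markers of hematopoietic and myeloid progenitors summed to 3525 to 3940 CPM in the WT-labelled and 1785 to 2069 CPM in the KO-labelled libraries. Of these markers 0 were called higher and 4 lower (Kit, Cd34, Mpo and Ctsg), and all are named after their values were seen. Means were 613 and 1.63 CPM for Cd34, 200 and 0.427 CPM for Mpo, 353 and 102 CPM for Kit. Ctsg, the most abundant, had 1502 and 763 CPM. Ptprc (360 and 541 CPM) and Spi1 (180 and 228 CPM) had higher means under the KO label and did not pass. Elane and Cebpa had lower means and did not pass. The 4 megakaryocyte markers summed to 27.4 to 40.6 CPM against 0.901 to 1.13 CPM, with Itga2b the highest, and the 5 mast cell and basophil markers to 14.7 to 25.5 CPM against 3.65 to 6.45 CPM, with Mcpt8 the highest. Granulocyte markers summed to 27.8 to 69.3 CPM against 38.7 to 82.2 CPM, with Csf3r the highest (means of 52.5 and 53.5 CPM). S100a8, S100a9, Ltf and Camp, named after their values were seen, reached at most 1.08 CPM in any library. Erythroid markers summed to at most 1.89 CPM. The B cell gene Cd79b had 1.92 to 2.18 CPM against 0.216 to 0.586 CPM. The 6 T and NK cell markers summed to at most 1.54 CPM and the 6 markers of stroma and endothelium to at most 1.91 CPM, with Cd3e, Ncr1, Ms4a1 and Pax5 at 0 reads in every library. The part of these marker differences in the results below was not tested, and fewer cells of a type cannot be told apart from less RNA per cell in such bulk samples.

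Of the 10 kinase and adaptor genes, 1 rose, 2 fell and 7 did not pass the test. Ikbke rose, while Ikbkb and Tab2 fell. The share called was 30.0%, against 27.3% of all 12126 tested genes (13.7% higher and 13.7% lower), so the count lies near the background of this comparison. Of the 10, 2 had every KO-labelled library above every WT-labelled one (Ikbke and Map3k7) and 2 had every KO-labelled library below (Ikbkb and Tab2). Groups did not overlap for 47.6% of all tested genes, 24.1% with KO-labelled libraries above and 23.5% below. The median of the 10 log2 fold changes was 0.06, beside −0.04 over all tested genes, and the median of their absolute values was 0.29, beside 0.38. Only Ikbke had a fitted change of 2-fold or more, a size reached by 20.5% of the tested genes.

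**Figure D1:**
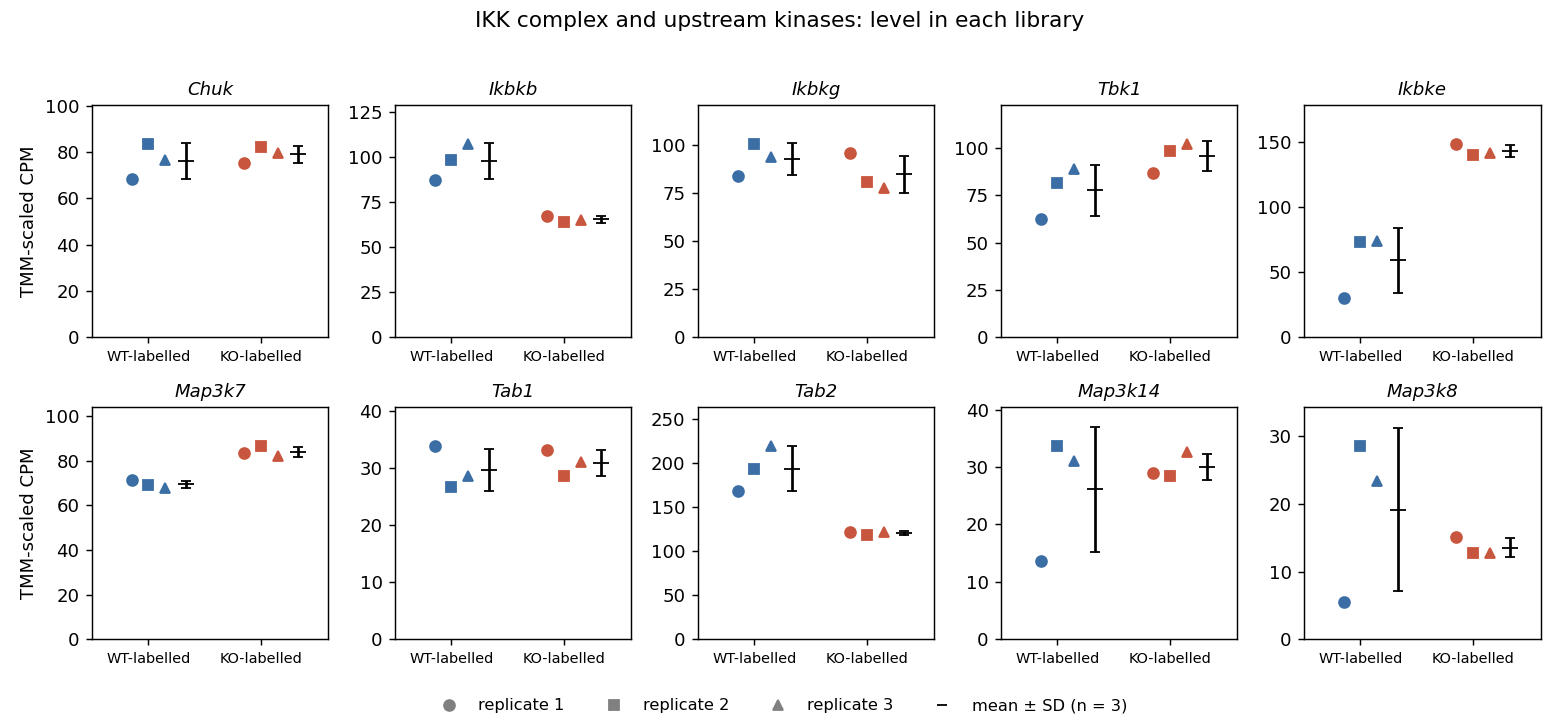
Level of each gene in each library, in TMM-scaled CPM on linear axes that start at 0; symbols mark the replicate number, and bars give the mean ± SD of 3 libraries. Ikbke and Map3k7 lie higher in all 3 KO-labelled libraries, Ikbkb and Tab2 lie lower, and WT-labelled replicate 1 lies far below the other two for Ikbke, Map3k14 and Map3k8.

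Of the 3 genes of the core complex, the gene of the canonical catalytic subunit fell and the other two did not pass. Ikbkb, which encodes IKKβ, the kinase that phosphorylates IκBα, stood at 87.2, 98.3 and 107 CPM under the WT label and at 67.4, 63.7 and 65.1 CPM under the KO label. The lowest WT-labelled library lay above the highest KO-labelled one. Group means were 97.5 ± 10.0 and 65.4 ± 1.88 CPM (SD, n = 3), which gave a log2 fold change of −0.58 (SE 0.12; adjusted p = 0.013 by edgeR), a fitted ratio of 0.671. Among the settings with fewer or summed libraries, Ikbkb no longer passed when KO-labelled replicate 2 or 3 was left out (adjusted p = 0.077 and 0.067) or with each group's replicates 2 and 3 summed into 1 sample (0.20, the upper end of a range from 6.5e-04 over 18 alternatives). In mm10 it occupies chromosome 8 from 22659212 to 22706589 (minus strand).

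Chuk, which encodes IKKα, the catalytic subunit that the noncanonical branch depends on, did not pass the test. It stood at 68.1, 83.4 and 76.6 CPM under the WT label and at 75.0, 82.1 and 79.6 CPM under the KO label. The groups overlapped, with a log2 fold change of 0.05 (SE 0.12; adjusted p = 0.79 by edgeR). The level of Ikbkb relative to Chuk was 0.341, 0.314 and 0.373 in the WT-labelled and 0.240, 0.207 and 0.218 in the KO-labelled libraries, both taken per kilobase of annotated exons. This ratio was lower in every KO-labelled library than in any WT-labelled one, an order that does not depend on which gene length is used. The level of Ikbkb alone had the same order.

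Ikbkg, the X-linked gene of NEMO, the ubiquitin-binding scaffold of the complex, stood at 83.8, 100.6 and 93.8 CPM under the WT label and at 95.8, 81.0 and 77.9 CPM under the KO label. The ranges overlapped because KO-labelled replicate 1 lay among the WT-labelled values. On the log2 scale its change was −0.13 (SE 0.13; adjusted p = 0.53 by edgeR). In replicates 2 and 3 alone it was −0.31 and passed (adjusted p = 0.015, the lower end of a range up to 0.98 over 18 alternatives), a setting in which 52.9% of all genes passed. Of its exon bases, 5.15% lie under exons of G6pdx on the opposite strand, and the strand setting of the counting is not given in the sources used here.

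With all 6 libraries Ikbke showed the largest change of the 10 genes. It encodes IKKε, the inducible IKK-related kinase, and it stood at 30.0, 73.5 and 73.6 CPM under the WT label and at 149, 140.0 and 142 CPM under the KO label. All KO-labelled values lay in a narrow band above every WT-labelled value, and WT-labelled replicate 1 lay at 0.408 of the mean of the other two. Group means were 59.1 ± 25.1 and 143 ± 4.57 CPM (SD, n = 3), a log2 fold change of 1.28 (SE 0.33; adjusted p = 0.026 by edgeR) or 2.43-fold. Without WT-labelled replicate 1 the log2 fold change was 0.97 (adjusted p = 3.5e-04), and in replicates 2 and 3 alone it was 0.92, less in size than the −1.04 of Map3k8. Among the settings with fewer or summed libraries, Ikbke no longer passed when WT-labelled replicate 2 was left out (adjusted p = 0.053), without KO-labelled replicate 1, 2 or 3 (0.085, 0.068 and 0.068) and with replicates 2 and 3 summed (0.11), while the log2 fold change stayed between 0.92 and 1.51 over 18 alternatives.

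The promoter of Ikbke is shown because it belongs to the only member that rose. The window covers 250 bases before and 50 after the RefSeq start on GRCm38.p6, the minus strand of chr1:131279514-131279813, with a match to the AP-1 letters TGANTCA in capitals.
Ikbke: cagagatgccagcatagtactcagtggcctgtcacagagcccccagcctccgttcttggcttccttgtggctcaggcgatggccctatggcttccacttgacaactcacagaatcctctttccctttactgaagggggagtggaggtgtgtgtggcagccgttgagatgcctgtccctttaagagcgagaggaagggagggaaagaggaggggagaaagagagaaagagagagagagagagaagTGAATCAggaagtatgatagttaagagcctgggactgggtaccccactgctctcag
The AP-1 match begins 6 bases before the start, and 7.81% of 32851 windows of this length hold one on either strand. No match to the κB consensus was found in this window, which says only that these letters are not there. A κB match was present in 4.51% of all windows.

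Tbk1, whose product is the constitutive relative of IKKε, stood at 62.5, 81.7 and 88.7 CPM under the WT label and at 87.0, 98.2 and 102 CPM under the KO label. The groups overlapped through WT-labelled replicate 3 and KO-labelled replicate 1. The log2 fold change of 0.30 (SE 0.16) did not pass (adjusted p = 0.21 by edgeR), and it did not pass under any of 18 alternatives (adjusted p from 0.055 to 0.43). The ratio of Ikbke to Tbk1, per kilobase of annotated exons, was 0.208, 0.390 and 0.360 under the WT label and 0.740, 0.618 and 0.601 under the KO label. The 3 KO-labelled ratios all lay above the 3 WT-labelled ratios, as the levels of Ikbke alone did. How often ratios of other gene pairs separate in this way is not given here.

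Scaffolds that hold TBK1 and IKKε differed from each other. Tank rose from 31.5 ± 1.74 to 69.9 ± 9.49 CPM and Tbkbp1 from 47.5 ± 3.18 to 91.2 ± 5.05 CPM (SD, n = 3), with log2 fold changes of 1.15 (SE 0.14) and 0.94 (SE 0.11) and adjusted p of 0.0013 and 0.0014 by edgeR. Both passed in all 18 alternatives. Azi2, the third scaffold of this kind, had 64.8 to 75.9 CPM in the WT-labelled and 74.1 to 76.3 CPM in the KO-labelled libraries and did not pass (adjusted p = 0.75). Azi2 is named outside the rule for named genes, after its values were seen.

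Of the TAK1 complex, a TAB gene fell and the kinase gene did not pass. Tab2, which encodes the subunit that binds ubiquitin chains and brings TAK1 to them, stood at 168, 193 and 220 CPM under the WT label and at 122, 118 and 121 CPM under the KO label. The groups did not overlap, and the KO-labelled values lay within a few CPM of each other. Group means were 194 ± 25.6 and 121 ± 2.00 CPM (SD, n = 3), with a log2 fold change of −0.68 (SE 0.13; adjusted p = 0.00965 by edgeR) and a fitted ratio of 0.623. Tab2 no longer passed when KO-labelled replicate 2 or 3 was left out (adjusted p = 0.058 and 0.052) or with replicates 2 and 3 summed (0.15, the upper end of a range from 4.8e-04 over 18 alternatives). In mm10 Tab2 occupies chromosome 10 from 7905653 to 7956230, which is 11.04 Mb from Tnfaip3. Tbk1 lies on the same chromosome at a distance of 103 Mb.

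Map3k7, which encodes TAK1, the kinase that activates IKK, stood at 71.2, 69.2 and 67.7 CPM under the WT label and at 83.5, 86.6 and 82.1 CPM under the KO label. Every KO-labelled value lay above every WT-labelled value, and the spread within each group was small. The log2 fold change was 0.28 (SE 0.10), which did not pass over all libraries (adjusted p = 0.089 by edgeR). It passed without WT-labelled replicate 1 (0.30, adjusted p = 0.033) and in replicates 2 and 3 alone (0.29, adjusted p = 0.018), settings in which 42.8% and 52.9% of all genes passed, and it ranged up to an adjusted p of 0.37 over 18 alternatives. Of the distinct 31-base words in its transcripts, 8.37% also occur in transcripts of other genes, mostly the predicted gene Gm8188 (7.90%). This was the highest share of the 10 genes, and how reads in these stretches were counted is not given in the sources used here.

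Map3k7 has its promoter shown because, among the members with a RefSeq entry, it held the only κB match. It is the plus strand of chr4:31963857-31964156 on GRCm38.p6, with the match in capitals, read on the opposite strand.
Map3k7: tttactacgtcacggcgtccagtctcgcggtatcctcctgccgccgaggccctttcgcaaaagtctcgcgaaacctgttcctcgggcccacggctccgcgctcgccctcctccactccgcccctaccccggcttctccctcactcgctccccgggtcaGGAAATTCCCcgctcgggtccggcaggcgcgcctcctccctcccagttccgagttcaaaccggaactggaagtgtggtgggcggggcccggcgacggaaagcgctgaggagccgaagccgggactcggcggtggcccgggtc
Promoter entries were matched by symbol for 7 of the 10 genes, with 11 start sites in all, and none were matched for Ikbkb, Tab1 and Map3k8. Neither Tab2 window held a match to the κB consensus or to TGANTCA. Of the Ikbkg start sites, 3 of 4 held TGANTCA. None of the 11 windows held the interferon response core, searched as 2 copies of GAAA with 2 bases of any kind between them on either strand, which occurs in 3.44% of all windows.

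Tab1, whose product binds and activates TAK1, was the least changed partner. It stood at 33.8, 26.7 and 28.5 CPM under the WT label and at 33.1, 28.6 and 30.98 CPM under the KO label. The groups overlapped fully, with a log2 fold change of 0.06 (SE 0.14; adjusted p = 0.81 by edgeR). The ratio of Tab2 to Map3k7 per kilobase of annotated exons was 2.48, 2.92 and 3.40 under the WT label and 1.53, 1.43 and 1.55 under the KO label. Tab3, the X-linked relative of Tab2 and named after its values were seen, had 15.0 to 21.4 CPM against 12.6 to 15.6 CPM and did not pass (log2 fold change −0.27, SE 0.20; adjusted p = 0.36).

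The kinase genes of the noncanonical and ERK branches did not pass, and for both the SD among the WT-labelled libraries was larger than the difference between the group means. Map3k14 encodes NIK, which is kept low by degradation of the protein, and its transcript stood at 13.6, 33.6 and 31.1 CPM under the WT label and at 29.0, 28.4 and 32.6 CPM under the KO label. WT-labelled replicate 1 lay at 0.422 of the mean of the other two, and the remaining 5 libraries lay close together. With all libraries its change was 0.20 on the log2 scale (SE 0.32; adjusted p = 0.69 by edgeR), and −0.10 without WT-labelled replicate 1 (adjusted p = 0.50).

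Map3k8 encodes TPL2, the kinase that p105 holds inactive until IKK releases it. It stood at 5.51, 28.5 and 23.4 CPM under the WT label and at 15.1, 12.7 and 12.7 CPM under the KO label. WT-labelled replicate 1 was the lowest of the 6 libraries and WT-labelled replicates 2 and 3 were the highest, so the groups overlapped. The log2 fold change over all libraries was −0.50 (SE 0.52; adjusted p = 0.53 by edgeR). Without WT-labelled replicate 1 it was −0.94 and passed (adjusted p = 0.0034, range 0.0012 to 0.93 over 18 alternatives). The ratio of Map3k14 to Map3k8 per kilobase of annotated exons overlapped between the groups. It was 1.70, 0.811 and 0.914 under the WT label and 1.32, 1.54 and 1.77 under the KO label. In WT-labelled replicate 1, Map3k8 stood at 0.212 of the mean of replicates 2 and 3, Ikbke at 0.408 and Map3k14 at 0.422, the library in which the summed level of the monocyte and macrophage markers was also lowest. Of all tested genes, 12.5% lay at or under 0.5 of that mean in this library and 4.92% at or above 2 times it.

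**Figure D2:**
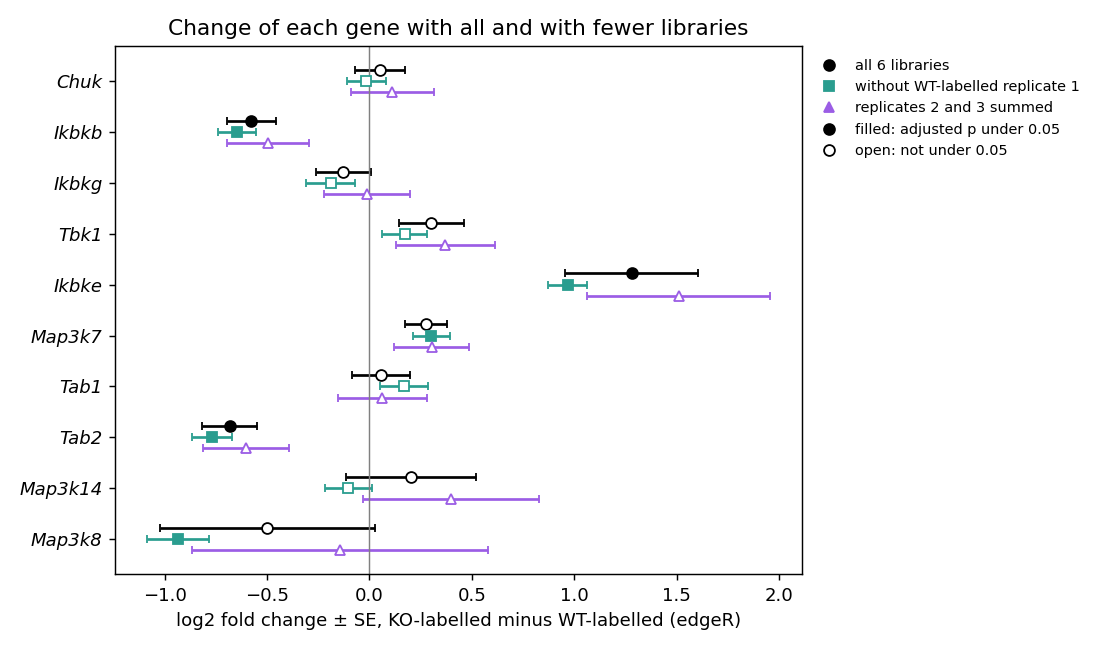
Log2 fold change ± SE of each gene by edgeR, KO-labelled minus WT-labelled, with all 6 libraries, without WT-labelled replicate 1, and with replicates 2 and 3 of each group summed; filled symbols have an adjusted p under 0.05. Without WT-labelled replicate 1 the genes Map3k7 and Map3k8 pass beside Ikbkb, Ikbke and Tab2, Map3k14 moves from 0.20 to −0.10, and with summed replicates no gene passes.

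The number of the 10 genes that passed moved with the libraries used, and so did the share of all genes that passed. Without WT-labelled replicate 1, 2 rose and 3 fell, where 42.8% of all genes passed. In replicates 2 and 3 alone, 2 rose (Ikbke and Map3k7) and 4 fell (Ikbkb, Ikbkg, Tab2 and Map3k8), where 52.9% passed. With replicates 2 and 3 summed none passed, where 8.44% of all genes did, and 2 of the 10 (Ikbke and Tab2) had an unadjusted p under 0.05 by edgeR. Without WT-labelled replicate 2, 0 rose and 2 fell (19.8% of all genes), and without KO-labelled replicate 1 it was 0 and 2 (18.4%). Without KO-labelled replicate 2 or 3 it was 0 and 0 (15.0% and 15.4%). In either case 3 of the 10 had an unadjusted p under 0.05 by edgeR (Ikbkb, Ikbke and Tab2). All shares of all genes in this paragraph are for the adjusted p. The share of all genes at an unadjusted p under 0.05 is not given here. The unadjusted counts of the 10 therefore cannot be set against a background.

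Levels of different genes were compared per kilobase of annotated exons, as GENCODE gives them. In the WT-labelled libraries Tab2 was highest at 31.6 ± 4.18 CPM per kb, followed by Tbk1 (19.9 ± 3.47), Chuk (14.9 ± 1.503), Ikbkg (11.4 ± 1.04), Map3k7 (10.8 ± 0.27), Tab1 (8.83 ± 1.10), Ikbke (6.55 ± 2.79), Ikbkb (5.11 ± 0.52), Map3k8 (4.25 ± 2.68) and Map3k14 (3.99 ± 1.66). Libraries of neighbours in this order overlapped for 6 of 9 pairs; the gaps lay below Tab2, between Chuk and Ikbkg, and between Map3k7 and Tab1. In the KO-labelled libraries Tbk1 was highest at 24.5 ± 2.00 CPM per kb, followed by Tab2 (19.7 ± 0.33), Ikbke (15.9 ± 0.51), Chuk (15.5 ± 0.70), Map3k7 (13.1 ± 0.36), Ikbkg (10.5 ± 1.18), Tab1 (9.20 ± 0.67), Map3k14 (4.59 ± 0.35), Ikbkb (3.43 ± 0.10) and Map3k8 (3.00 ± 0.30). Here 3 of 9 neighbouring pairs overlapped: Ikbke with Chuk, Ikbkg with Tab1, and Ikbkb with Map3k8. Ikbke had rank 7 in the WT-labelled and rank 3 in the KO-labelled order.

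The place of Ikbkb in this order rests on the gene length. Its annotated exons cover 19.1 kb, whereas its longest transcript has 4845 bases. Per kilobase of the longest transcript Ikbkb had 20.1 ± 2.06 CPM in the WT-labelled libraries, close to Chuk at 21.7 ± 2.18, and 13.5 ± 0.39 against 22.5 ± 1.02 CPM in the KO-labelled libraries. Among the 4 IKK-family kinase genes taken per kilobase of annotated exons, Ikbke made up 8.94%, 16.1% and 15.8% of the sum in the WT-labelled libraries and 28.9%, 25.8% and 25.8% in the KO-labelled libraries. Tbk1 remained the most abundant of the 4 on this scale in all 6 libraries, at 39.0% to 44.0%.

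**Figure D3:**
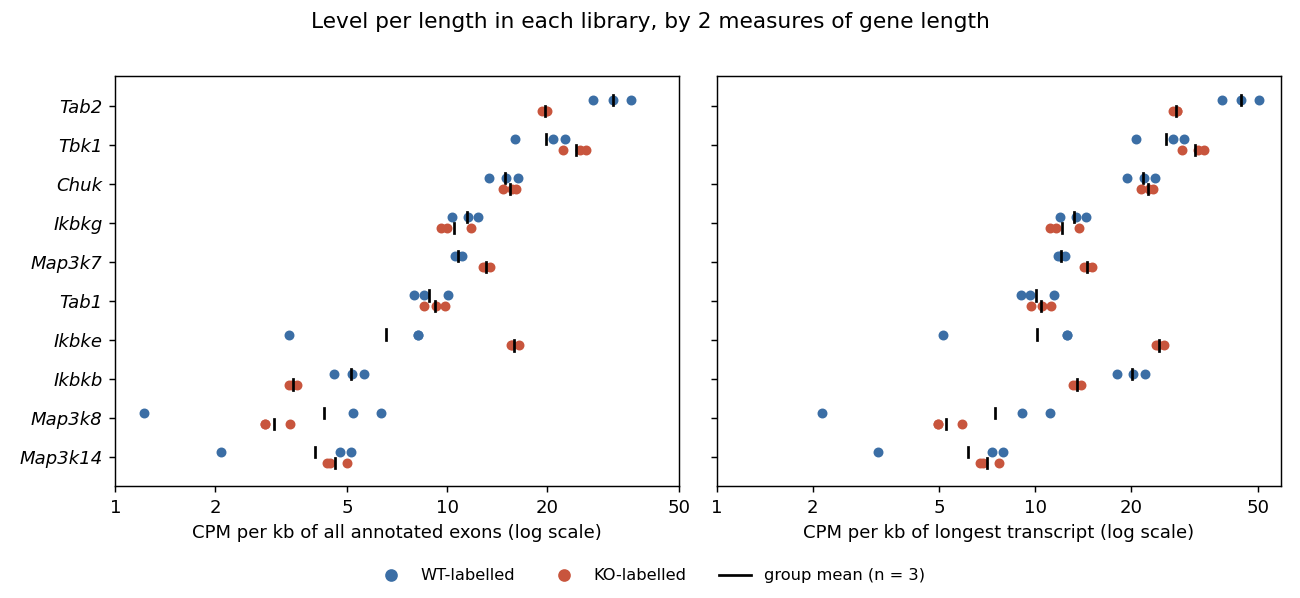
Level of each gene in each library in CPM per kilobase (log axis), with gene length taken as all annotated exons on the left and as the longest transcript on the right; bars mark group means of 3 libraries. Tab2 and Tbk1 lie at the top by both lengths, Ikbke has rank 3 in the KO-labelled libraries by both, and Ikbkb moves up on the right.

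Around these kinases stand the adaptors and ubiquitin enzymes that bring them to receptors. Of 30 such genes, all tested, 9 rose, 2 fell and 19 did not pass (36.7% called, beside 27.3% of all genes; median log2 fold change 0.10). Besides Tank and Tbkbp1, Tnip1, which encodes a ubiquitin-binding partner of A20, rose from 56.5 ± 2.27 to 152 ± 18.5 CPM, and Birc3, which encodes a ubiquitin ligase that also restrains NIK, from 28.5 ± 6.15 to 101 ± 17.4 CPM (log2 fold changes 1.43 and 1.82, adjusted p = 4.2e-04 and 0.0011 by edgeR). Both genes that fell are named with their values already seen. Ripk1, the receptor-complex kinase whose ubiquitin chains recruit TAK1 and IKK, fell from 159 ± 4.13 to 110 ± 3.32 CPM, and Otulin, which trims linear ubiquitin chains, from 75.5 ± 5.27 to 52.5 ± 4.14 CPM (adjusted p = 0.011 and 0.018). With replicates 2 and 3 summed 4 of the 30 rose and 0 fell, where 8.44% of all genes passed. In replicates 2 and 3 alone 13 rose and 7 fell, where 52.9% of all genes passed.

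Among 22 substrates and downstream kinases 6 rose, 0 fell and 16 did not pass (27.3% called, equal to the 27.3% of all genes; median log2 fold change 0.20). Of all genes, edgeR called 13.7% lower. DESeq2 and limma-voom, run on the same libraries, also called 0 of the 22 lower, and 14.3% and 12.9% of all genes. At an unadjusted p under 0.05 by edgeR 0 of the 22 were lower, and the share of all genes at that threshold is not given here. Without WT-labelled replicate 1 and in replicates 2 and 3 alone 1 of them was called lower, Rel, named after its values were seen (log2 fold change −0.54 and −0.49, both with an adjusted p of 0.045 by edgeR). Of all genes, 20.8% and 27.1% were called lower in these settings. Nfkbia, which encodes the canonical substrate of IKKβ, rose by 2.35 on the log2 scale (SE 0.21), Nfkbie by 1.505 (SE 0.22) and Nfkbib by 0.80 (SE 0.12), with adjusted p of 4.1e-04, 0.0029 and 0.0039 by edgeR. Nfkb2, whose p100 precursor is the substrate of the NIK and IKKα branch, rose from 22.6 ± 7.47 to 116 ± 6.93 CPM (adjusted p = 9.4e-04 by edgeR). Nfkb1, which encodes p105, the protein that holds TPL2, had 175 to 212 CPM in the WT-labelled and 169 to 174 CPM in the KO-labelled libraries and did not pass (adjusted p = 0.41); it was named after its values were seen.

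Other kinases of the MAP3K level went both ways. The table held 18 of 19 symbols, with Map3k20 found under an older name. Of 15 tested genes 2 rose, 3 fell and 10 did not pass (33.3% called, beside 27.3% of all genes). Their median log2 fold change was 0.00. Map3k5, which encodes the stress kinase ASK1, fell from 25.6 ± 2.04 to 12.7 ± 0.26 CPM and Map3k10 from 25.3 ± 5.02 to 15.9 ± 0.34 CPM. Zak, the table's name for Map3k20, rose from 72.0 ± 3.19 to 116 ± 7.03 CPM and Map3k6 from 2.22 ± 1.48 to 9.94 ± 1.37 CPM. The adjusted p of these 4 by edgeR ran from 0.0023 for Map3k5 to 0.032 for Map3k10, and with replicates 2 and 3 summed none of them passed (0.061 to 0.15).

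**Figure D4:**
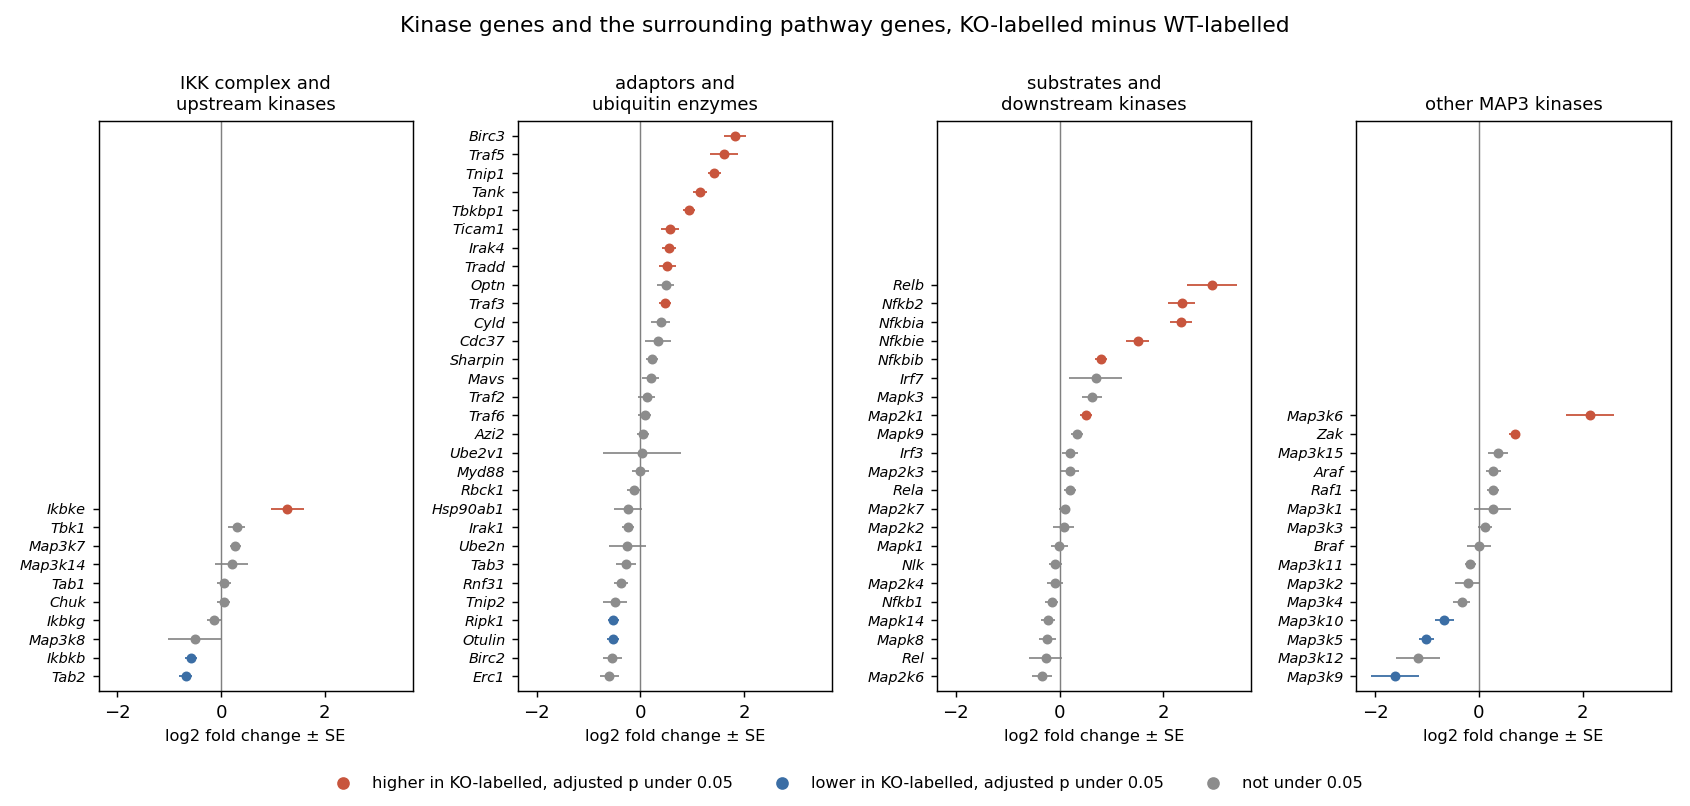
Log2 fold change ± SE by edgeR, KO-labelled minus WT-labelled, for the 10 kinase and adaptor genes and 3 lists of surrounding genes; red and blue mark genes higher or lower at an adjusted p under 0.05. Nfkbia, Nfkbie and Nfkb2 are among the genes that lie to the right of Ikbke at 1.28. Relb, named after its values were seen, lies furthest to the right at 2.94. The median absolute change is 0.29 for the 10 genes and 0.38 over all tested genes. It is 0.43 for adaptors and ubiquitin enzymes, 0.25 for substrates and downstream kinases and 0.33 for other MAP3 kinases.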

How the data were processed

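Raw read counts per gene were deposited by the authors, with no normalization, for 6 libraries. Per the labels' protocols, total RNA went through a stranded TruSeq mRNA preparation, and per the submitters' processing notes the tools were FastQC 0.11.7, HISAT2 2.0.5 and featureCounts 1.5.2 with mm10; neither annotation nor strand setting is given in the sources used here. Groups came from the sample titles.

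Counts were fitted in R 4.3.3 with edgeR 4.0.16 (default low-count filter, TMM scaling, robust quasi-likelihood test, group as the only term) over 12126 genes, with Benjamini-Hochberg adjustment over all of them. The alternatives tried were DESeq2 1.42.0, limma-voom (limma 3.58.1), other scalings and filters, non-robust dispersion, a replicate block, a term for replicate 1, replicates 2 and 3 alone or summed, and leaving out each library. The tests were also run on counts simulated as independent libraries. Those hold no pair as alike as replicates 2 and 3, so the run does not bear on p-values where libraries are not independent. Gene positions, exon lengths and shared 31-base words came from GENCODE M21, which uses the same assembly, and promoters from RefSeq on GRCm38.p6. Libraries of 1 group were compared by chi-square per degree of freedom, 25.2 to 231 among WT-labelled and 2.37 to 94.5 among KO-labelled pairs. In both groups the lowest value was that of replicates 2 and 3 (25.2 and 2.37). All 6 libraries were kept as separate samples, and whether replicates 2 and 3 of a group came from 1 culture was not tested.

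Named genes were the 10 members, Tnfaip3, and up to 4 called genes per surrounding list in order of p; others are marked where named. The members and lists were chosen with earlier results of these data known. The summed level of 1 marker list is not reported here.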

Additional observations from a re-analysis of the deposited data

How the results depend on the processing

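Of 180 log2 fold changes of the 10 genes under 18 alternatives, 157 kept their direction and their side of the threshold. Other scalings, DESeq2, limma-voom, other filters, non-robust dispersion and a term for replicate 1 changed no call among the 10 genes. Same-numbered libraries of the 2 groups did not deviate together (correlations of −0.01, −0.06 and 0.05 for replicates 1, 2 and 3, and 1 of 3 WT-labelled libraries correlated best with its own number), so the numbers were not taken as pairs. With a replicate block 989 genes were higher and 1034 lower (16.7% of all genes), and 0 members were higher and 1 lower, as Ikbkb (−0.57, adjusted p = 0.057 by edgeR) and Ikbke (1.38, 0.054) did not pass; 5 adaptors were higher and 0 lower, and 1 other MAP3 kinase was lower. Replicates 2 and 3 alone gave 3149 genes higher and 3309 lower (52.9% of all genes). In that setting 2 members were higher and 4 lower. The lists had 7 adaptors lower, 10 substrates higher and 1 lower, and 6 other MAP3 kinases lower. There Ikbkg (−0.31), Map3k7 (0.29) and Map3k8 (−1.04) passed, and Chuk (−4.5e-04) and Map3k14 (−0.10) changed sign. With replicates 2 and 3 summed 543 genes were higher and 518 lower (8.44% of all genes). Higher and lower were 0 and 0 members, 4 and 0 adaptors, 0 and 0 other MAP3 kinases, with 3 substrates higher. In this setting Ikbkb (−0.50), Ikbke (1.51) and Tab2 (−0.60) did not pass. These settings hold fewer samples or residual degrees of freedom than the main fit. More genes passed than in the main fit with replicates 2 and 3 alone, and fewer with the replicate block or summed replicates. The cause of these differences was not tested.

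Leaving out 1 library at a time gave 939 to 2712 genes higher and 916 to 2568 lower, the upper ends without WT-labelled replicate 1. As shares of all tested genes these were 7.6% to 22.0% higher and 7.41% to 20.8% lower. Members were 0 to 2 higher and 0 to 3 lower, adaptors 5 to 12 and 0 to 5, substrates 5 to 9 and 0 to 1, and other MAP3 kinases 1 to 2 and 1 to 5. Log2 fold changes ranged from −0.015 to 0.12 for Chuk, −0.65 to −0.50 for Ikbkb, −0.22 to −0.064 for Ikbkg, 0.17 to 0.41 for Tbk1, 0.97 to 1.47 for Ikbke, 0.26 to 0.30 for Map3k7, −0.020 to 0.17 for Tab1, −0.77 to −0.58 for Tab2, −0.10 to 0.41 for Map3k14 and −0.94 to −0.11 for Map3k8. The median level of the 10 genes was taken in each WT-labelled library. Averaged over the 3 libraries, it was 9.73 CPM per kb of annotated exons and 12.9 CPM per kb of the longest transcript. Every member had over 100 reads in each library, and the share of counting error in the spread between libraries was not tested.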
